A study of Mus musculus with 75 samples.

Results

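Chromatin loops with late-G1 peaks of CTCF and of the cohesin subunit Rad21 at both ends were followed in mouse G1E-ER4 cells. The 3276 of them under 500 kb that were first called in early G1, after cells had left mitosis, are described here. They were chosen from 11340 loops called in late G1. Of these, 5816 had a late-G1 CTCF peak and a late-G1 Rad21 peak at each anchor, and 5357 of the 5816 were under 500 kb. A late-G1 loop was kept if both of its anchors lay within 20 kb of the anchors of an early-G1 loop and no loop of pro-metaphase or ana/telophase lay as close. The 3276 loops are 61.2% of the 5357. The other 2081 divide into 468 loops already called by ana/telophase and 1613 called only after early G1, and these serve as the comparison.

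CTCF is a zinc-finger protein that binds a directional DNA motif. Cohesin is a ring complex, of which Rad21 is the subunit that closes the ring. In the model of loop extrusion, cohesin reels in DNA until it meets CTCF at a site facing it, so that paired CTCF sites become the corners of a loop. Where one side is held while the other is still being reeled in, a contact map shows a stripe running from the held anchor. Most cohesin leaves chromosome arms and most loops and domains are lost in mitosis, and both are built again afterwards.

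G1E-ER4 is a subline of G1E, an erythroid precursor line that lacks the transcription factor GATA1, and carries an inducible form of it. It was used uninduced, so the loss of GATA1 is common to all groups. All stages come from 1 line of strain 129. Nocodazole at 200 ng/ml, given for 7 to 8.5 h, arrested cells in pro-metaphase, after which they were released and sorted by flow cytometry. Asynchronous cells were used for ChIP-seq alone. The stages were pro-metaphase (0 min after release), ana/telophase (25 min), early G1 (60 min), mid G1 (120 min) and late G1 (240 min). Hi-C, which reads contacts across the genome, had 2 samples per stage. ChIP-seq, which maps bound protein, had 3 CTCF samples in pro-metaphase and 2 in every other group, and 2 Rad21 samples per group.

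Each list of loops, domains, stripes or peaks pools the samples of its stage, so no spread between replicates can be given and no difference below has a replicate test. Intervals in brackets are exact 95% binomial intervals for shares and order-statistic intervals for medians. They cover counting error only, and loops that share an anchor are not independent. The lists differ in length: 84, 908, 7029, 9714 and 11340 loops were called from pro-metaphase to late G1. Hi-C was done on 5000000 cells per experiment in pro-metaphase and ana/telophase and on 10000000 in G1, and read depth is unknown, so a loop not called early cannot be told apart from one that was too weak to call.

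The loops first called in early G1 were of intermediate size. The median distance between the corners was 160 kb (interval 160 to 170), the middle 50% lay between 100 and 240 kb, and the range was 30 to 490 kb. The median was 130 kb (120 to 140) in the loops called by ana/telophase and 210 kb (200 to 210) in those called after early G1. Loops of 300 to 390 kb made up 10.8% of the loops first called in early G1, 1.50% of the earlier ones and 17.7% of the later ones.

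**Figure D1:**
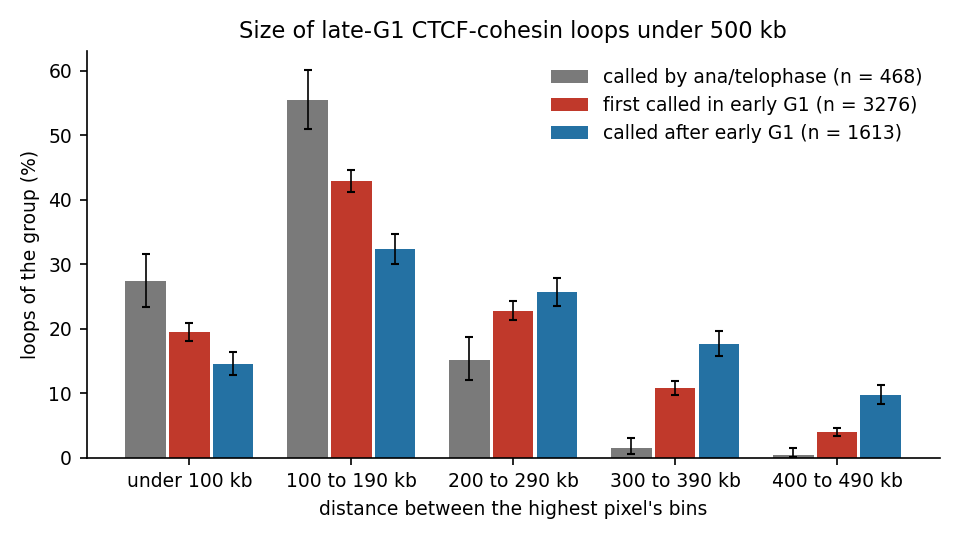
Share of loops in 5 size classes (x axis, distance between the corners) in each group (y axis, percent of the group); bars are shares and whiskers exact 95% intervals. The loops first called in early G1 lie between the other two groups in every class, from 19.5% under 100 kb to 3.97% at 400 to 490 kb.

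At the upper end 5 loops sat just inside the size limit at 490 kb, with late-G1 observed/expected values from 3.52 to 11.0. Just outside it, 4 CTCF-cohesin loops of 500 kb that were likewise first called in early G1 had values from 4.45 to 9.69. Observed/expected is the contact at the loop's highest pixel over the authors' expected value there, so 1 means no excess.

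The loops were spread over all 20 chromosomes in the lists. Their share of the CTCF-cohesin loops under 500 kb was lowest on chromosome 12, at 48.4% (40.4 to 56.5, 77 of 159), and reached 66.7% on chromosome 16 (59.0 to 73.7, 112 of 168). All chromosomes but the first of these lay between 56.6% and 66.7%. Merging overlapping anchors gave 4623 separate places, of which 3166 served 1 anchor and 1085 served 2. The most shared place, chr17:57080001-57150000 (build mm9), was an anchor of 7 loops of 100 to 340 kb. It was the upstream anchor of 4 and the downstream anchor of 3. CTCF peaks lay there at every stage, from 1 in pro-metaphase to 5 in ana/telophase. No Rad21 peak was listed there in pro-metaphase, 1 was in ana/telophase and 2 were in each stage of G1. Observed/expected of its 7 loops ran from 2.25 to 4.18 in early G1 and from 2.58 to 4.58 in late G1, below or near the median of all the loops.

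CTCF was at these anchors before the loops were called. A CTCF peak lay at both anchors of 42.4% of the loops in pro-metaphase (40.7 to 44.1; 41.3% of all 5357 loops). The share was 90.0% by ana/telophase (89.6% of all 5357), 97.6% by early G1 (97.5%) and 99.5% by mid G1 (99.5%). At each stage it was close to that of all CTCF-cohesin loops under 500 kb. The CTCF lists held 11604, 33127, 33815, 36009 and 33499 peaks from pro-metaphase to late G1, so the step into ana/telophase moves with the number called. At neither anchor was CTCF listed in ana/telophase for 12 of the loops, at a stage when none of them was called. The late-G1 peaks are part of the rule and carry no information of their own.

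Rad21 was listed at both anchors later than CTCF. In pro-metaphase 0.824% of the loops had a Rad21 peak at both anchors (0.544 to 1.20; 0.784% of all 5357), and 86.4% had one at neither. In ana/telophase the share at both anchors was 41.5% (39.8 to 43.2; 38.4% of all 5357). In early G1, the stage at which the loops were called, it was 58.6% (56.9 to 60.3; 53.5%), and in mid G1 88.4% (87.3 to 89.5; 87.2%). The early-G1 Rad21 list thus held peaks at both anchors of 1920 loops, at a single anchor of 1164 (35.5%, against 38.4% of all 5357) and at neither of 192 (5.86%, against 8.05%). Of the 1920, 1913 also had an early-G1 CTCF peak at both anchors. These are 58.4% of the loops, a share not computed over all 5357. Rad21 was first listed at both anchors only in mid G1 for 854 loops and only in late G1 for 344, together 36.6% of the loops (34.9 to 38.2), against 41.3% of all 5357. An early-G1 Rad21 peak lay at 76.9% of the upstream and 75.8% of the downstream anchors, against 73.1% and 72.4% over all 5357.

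The sequence was not one-way in the lists. In 156 loops (4.76%, against 5.10% of all 5357), Rad21 was listed at both anchors in ana/telophase but not in early G1, against 1204 in which it was listed at both in both stages. From pro-metaphase to late G1 the Rad21 lists held 596, 7995, 8694, 15762 and 18958 peaks, so the shares move with the number of peaks called. With each list limited to its 7995 strongest peaks, the early-G1 share was 53.8% for Rad21 and 36.2% for CTCF. The cut removed most of the 33815 early-G1 CTCF peaks but few of the 8694 Rad21 peaks. It therefore lowers the CTCF share far more and cannot decide which protein was at the anchors first.

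**Figure D2:**
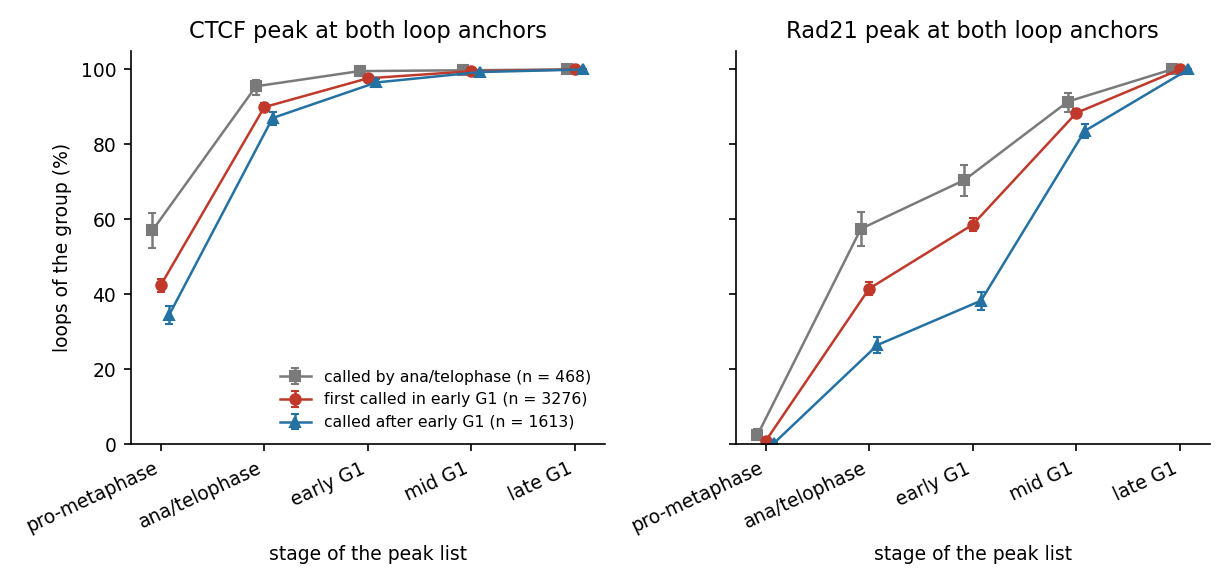
Share of loops (y axis, percent of the group) with a CTCF peak (left) or a Rad21 peak (right) at both anchors, by the stage of the peak list (x axis); points are shares and whiskers exact 95% intervals. CTCF reached 90.0% of the loops first called in early G1 in ana/telophase, whereas Rad21 reached 88.4% in mid G1; the late-G1 value of 100% is fixed by the rule.

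Rad21 shares were ordered like the stage of the loop call. In early G1 the share with Rad21 at both anchors was 70.5% (66.2 to 74.6) in the earlier loops, 58.6% in those first called in early G1 and 38.3% (35.9 to 40.7) in the later loops. In ana/telophase it was 57.5%, 41.5% and 26.5%. Loop size also differed between the groups. Within 100 to 190 kb the early-G1 shares were 72.7%, 54.4% (51.8 to 57.0) and 30.3% (26.4 to 34.4). CTCF in pro-metaphase had the same order, with 57.1%, 42.4% and 34.4%.

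Anchor width moved with the groups as well. The summed width of a loop's anchors had a median of 70 kb in the earlier loops, 50 kb in those first called in early G1 and 40 kb in the later ones. In loops with both anchors at most 20 kb wide, a restriction chosen after the data had been seen, the difference from the earlier loops was no longer seen: Rad21 was at both anchors in early G1 in 55.6% of 72 earlier loops (43.4 to 67.3) and 55.1% of 1172 loops first called in early G1 (52.2 to 58.0). The difference from the later loops was still there, with 38.1% of 691 (34.4 to 41.8). In ana/telophase the same 3 shares were 36.1%, 36.1% and 25.6%, and for pro-metaphase CTCF they were 38.9%, 38.4% and 34.9%.

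**Figure D3:**
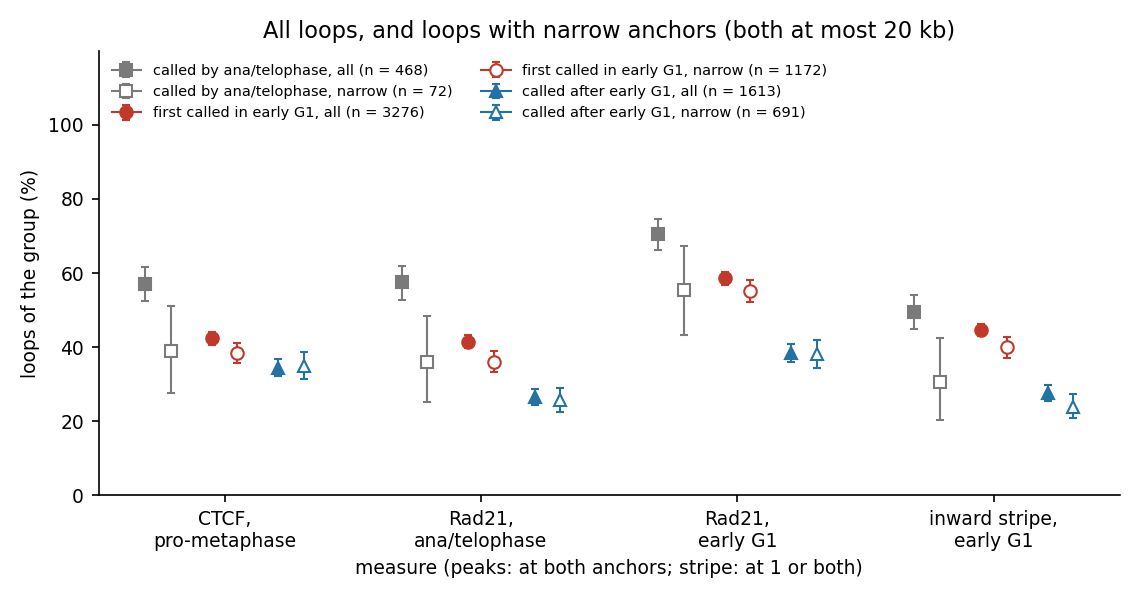
Share of loops (y axis, percent) with a peak at both anchors or an inward stripe at 1 or both (x axis, 4 measures), for all loops of each group (filled) and for those with both anchors at most 20 kb wide (open); whiskers are exact 95% intervals. With narrow anchors the earlier loops and those first called in early G1 have early-G1 Rad21 shares of 55.6% and 55.1%, and the later loops 38.1%.

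Over all loops of each group, the deposited fold enrichment of the late-G1 peaks was also highest in the earlier and lowest in the later loops. Late-G1 peaks are part of the rule for every group, so their folds are a description. For each loop the strongest peak at each anchor was taken, and then the weaker of these anchors. The median Rad21 fold at the weaker anchor was 12.1 (11.4 to 12.8) in the earlier loops, 10.3 (10.1 to 10.5) in those first called in early G1 and 8.70 (8.51 to 8.88) in the later ones. For CTCF the medians were 29.1, 25.1 and 23.4. These folds are the authors' own values at peak summits, and the strongest of several peaks is also higher where an anchor is wider. The folds were not compared within narrow anchors.

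Pro-metaphase CTCF went with earlier Rad21. Among the 1389 loops with a CTCF peak at both anchors in pro-metaphase, Rad21 was at both anchors of 58.5% (55.8 to 61.1) in ana/telophase and 70.3% (67.8 to 72.7) in early G1. Among the 491 loops with no pro-metaphase CTCF peak at either anchor, the shares were 18.3% (15.0 to 22.0) and 39.7% (35.4 to 44.2). The contact values lay closer together: the median early-G1 observed/expected was 3.93 (3.84 to 4.03) in the first set and 3.76 (3.62 to 3.87) in the second, and the median size was 160 kb in both. The summed anchor width had a median of 50 kb in the first set and 40 kb in the second.

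Contact in early G1 was part of the rule, since each loop had to be called there, so its values and those of late G1 are a description. In early G1 the median observed/expected was 3.90 (3.84 to 3.95). Mid G1, where 3137 of the loops had a match, gave 4.49 (4.40 to 4.56), and late G1 gave 3.92 (3.83 to 4.01). Single loops ran from 1.60 to 14.0, from 1.58 to 19.0 and from 1.59 to 17.3 over these stages, so the stages overlapped almost entirely. Loop by loop, the median ratio of late over early G1 was 1.02 (1.01 to 1.03), with the middle 50% between 0.863 and 1.20 and extremes of 0.294 and 2.58. Observed/expected was higher in late than in early G1 in 54.0% of the loops (52.3 to 55.7), against 41.2% of all 7269 late-G1 loops with an early-G1 match. The 7269 also hold loops without both proteins at both anchors and loops of 500 kb and over. Over the 3725 CTCF-cohesin loops under 500 kb with an early-G1 match, most of them the loops described here, the median ratio was 1.01 (1.01 to 1.02). In the earlier loops it was 0.979 (0.956 to 1.00).

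Mid G1 is the one stage of Hi-C that the rule did not use. There 95.8% of the loops were matched (95.0 to 96.4), against 96.6% (94.5 to 98.0) of the earlier loops and 66.4% (64.0 to 68.7) of the later loops. The share was 87.0% of all 5357 CTCF-cohesin loops under 500 kb and 81.1% of all late-G1 loops. The later loops lack an early-G1 match by the rule, so the earlier loops are the nearer comparison. The ratio of mid over early G1 had a median of 1.13 (1.12 to 1.14), and mid G1 was above early G1 in 72.0% of the matched loops, against 66.2% of all late-G1 loops with both matches. The median ratio was 1.12 (1.11 to 1.13) over all CTCF-cohesin loops under 500 kb with both matches. In the earlier loops it was 1.06 (1.04 to 1.08). Mid G1 was the highest of the 3 stages in 53.4% of the loops, against 52.9% of all late-G1 loops with both matches, so this share is close to the background. Observed/expected was higher at each step from early to late G1 in 18.6% and lower at each step in 14.3%.

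Part of this depends on the denominator and on the match. The observed contact had medians of 30.2 in early, 35.9 in mid and 35.7 in late G1, and the expected value 7.16, 7.37 and 8.13. By observed contact alone, late G1 was above early G1 in 72.9% of the loops (62.9% of all late-G1 loops with an early-G1 match), with a median ratio of 1.17. That ratio was 1.16 over the 3725 CTCF-cohesin loops under 500 kb with an early-G1 match and 1.10 in the earlier loops. Of the loops, 1099 had more than 1 early-G1 match and the one with the highest observed/expected was taken, whereas late G1 offered no such choice. Loops also shared matches: the 3276 loops took their values from 2833 early-G1 loops, and 845 of them (25.8%) had the same early-G1 loop as another. In mid G1, 3137 loops took theirs from 2708. The highest pixel of the match was the same as in late G1 for 1134 loops. For 426 the pixels were at least 50 kb apart, summed over both ends, so the ratio can set neighbouring contacts against each other. In the 1134 loops with the same pixel, a subset chosen after the data had been seen, the median ratio was 1.07 (1.05 to 1.08), with extremes of 0.471 and 2.31, and late G1 was above early G1 in 63.4% (60.5 to 66.2). In the 1773 loops with 1 match that no other loop shared, also chosen so, the median ratio was 1.06 (1.05 to 1.08). With the nearest match instead, the medians were 3.77 in early, 4.30 in mid and 3.92 in late G1. No source used here says how contacts were normalized between stages.

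Longer loops had higher observed/expected values. The early-G1 median was 2.85 (2.78 to 2.90) in the 638 loops under 100 kb and 3.70 in the 1408 loops of 100 to 190 kb. The 746, 354 and 130 loops of the next 3 classes, each 100 kb wide, had medians of 4.68, 5.16 and 5.29 (4.94 to 5.64). The observed contact ran the other way, from a median of 48.5 under 100 kb to 21.1 at 400 to 490 kb. Mid G1 had the highest median in each size class. Its medians leave out loops without a mid-G1 match and take the highest of several matches. The nearest match was not tried by size class. Across the 3276 loops, Spearman's rho was 0.575 between size and early-G1 observed/expected and 0.777 between the early-G1 and the late-G1 value, as a description over loops that share anchors and maps.

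Loops with Rad21 listed at more anchors in early G1 had higher medians. The median early-G1 observed/expected was 3.45 (3.24 to 3.66) in the 192 loops with no early-G1 Rad21 peak at either anchor, 3.70 (3.61 to 3.81) with Rad21 at 1 anchor and 4.10 (4.01 to 4.23) with Rad21 at both. In late G1, when every loop has Rad21 at both anchors by the rule, the medians were 3.11 (2.98 to 3.37), 3.60 (3.51 to 3.70) and 4.26 (4.14 to 4.37). The early-G1 order was also present within 100 to 190 kb, with medians of 3.34, 3.53 and 3.88. The late-G1 Rad21 fold at the weaker anchor differed along with it, with medians of 6.32, 7.08 and 13.4. Over all the loops, Spearman's rho with late-G1 observed/expected was 0.282 for that Rad21 fold and 0.0346 for the CTCF fold. The 192 loops without an early-G1 Rad21 peak were matched in mid G1 in 95.3% (91.3 to 97.8), those with Rad21 at 1 anchor in 94.2% and those with Rad21 at both in 96.8%.

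**Figure D4:**
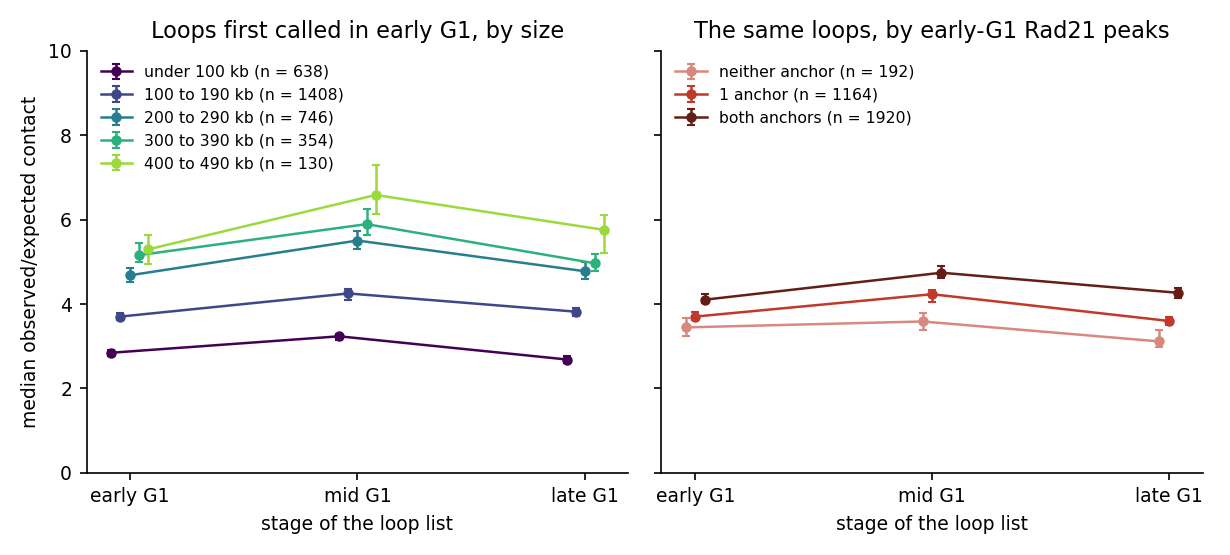
Median observed/expected contact (y axis) of the loops first called in early G1, by stage of the loop list (x axis), in 5 size classes (left) and by the number of anchors with an early-G1 Rad21 peak (right); whiskers are order-statistic intervals. Mid G1 is highest in each line, and the early-G1 medians run from 2.85 to 5.29 with size and from 3.45 to 4.10 with Rad21. Early- and mid-G1 values are those of the match with the highest observed/expected. The mid-G1 medians leave out loops without a mid-G1 match.

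The 139 loops with no mid-G1 match had low values. Their median observed/expected was 2.82 (2.69 to 3.02) in early G1 and 2.69 (2.60 to 2.91) in late G1, against 3.94 and 4.01 in the matched loops. Of the 139, 54 had a mid-G1 loop within 40 kb. Near the limit of the matching rule, 163 loops lay more than 10 kb from their early-G1 match, with a median late-G1 observed/expected of 2.97. Just outside the rule, 264 of the later loops had an early-G1 loop at 20 to 40 kb and a median of 2.92.

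Stripes ran into the loops from their anchors in G1 but rarely before it. An inward stripe starts in the upstream anchor and runs downstream, or the mirror of this. In pro-metaphase 0.366% of the loops had an inward stripe at 1 or both anchors (0.189 to 0.639; 0.429% of all 5357), and in ana/telophase 7.23% did (6.37 to 8.18; 6.78%). The early-G1 share was 44.7% (42.9 to 46.4; 39.9%), the mid-G1 share 45.3% (40.7%) and the late-G1 share 45.2% (40.6%). The stripe lists hold 39, 307, 1753, 1754 and 1745 stripes from pro-metaphase to late G1, so the step into early G1 moves with the number called. An outward stripe was at 1 or both anchors of 5.25% in early G1, against 5.51% of all 5357.

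An inward stripe was at both anchors of 182 loops in early G1, or 5.56%, against 4.95% of all 5357, and at a single anchor of 1281 (39.1%, against 35.0%). Of the 1463 loops with an inward stripe in early G1, 1433 had one in late G1 (97.9%, against 98.0% of all loops with an early-G1 stripe). Stripes went with size: over the 5 size classes, shortest first, 13.0%, 37.7%, 59.2%, 82.5% and 88.5% of the loops had one in early G1. The shortest stripe in the lists was 130 kb, longer than many of the loops. For each loop and anchor with an inward stripe in early G1, the farthest-reaching stripe was taken. Of these, 1607 (97.7%) ran past the far anchor and 36 ended within 20 kb of it. Taking the farthest stripe favours running past. The share was not computed over all 5357, so it cannot be called particular to these loops. Within 100 to 190 kb the early-G1 median observed/expected was 4.11 (3.99 to 4.29) with an inward stripe and 3.48 (3.36 to 3.56) without. Both are read from the same early-G1 map and are not independent.

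Stripes also went with Rad21. An inward early-G1 stripe was present in 19.8% (14.4 to 26.1) of the loops with early-G1 Rad21 at neither anchor, 40.3% (37.5 to 43.2) with Rad21 at 1 and 49.8% (47.5 to 52.1) with Rad21 at both. The size medians of these 3 sets were 135, 160 and 170 kb. Between groups, early-G1 inward stripes were at 49.6% (45.0 to 54.2) of the earlier loops and 27.5% (25.4 to 29.8) of the later loops. Within 100 to 190 kb the shares were 51.9% in the earlier loops, 37.7% in those first called in early G1 and 14.9% in the later ones. With both anchors at most 20 kb wide they were 30.6% (20.2 to 42.5), 39.9% (37.1 to 42.8) and 23.9% (20.7 to 27.2), so the earlier loops no longer had the highest share.

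Some anchors were already at domain boundaries before the loops were called. A domain boundary lay within 20 kb of both anchors in 10.2% of the loops in pro-metaphase (9.18 to 11.3; 9.84% of all 5357). The ana/telophase share was 18.4% (18.2%), and those of early, mid and late G1 were 18.7% (17.4 to 20.1; 19.7%), 19.6% (21.4%) and 19.0% (20.8%). These shares are near the background at every stage. The domain lists hold 2509, 5531, 9210, 10286 and 10899 domains from pro-metaphase to late G1, so the step into ana/telophase moves with the number called. A single domain joined both anchors in 7.08%, 13.6%, 13.9%, 14.3% and 14.0% of the loops over the same stages, against 6.74%, 12.8%, 13.8%, 15.0% and 14.8% of all 5357. Of the 458 loops spanned by such a domain in late G1, 254 (55.5%, 50.8 to 60.1) were so in ana/telophase and 330 (72.1%, 67.7 to 76.1) in early G1, against 47.2% and 67.5% of the 795 loops so spanned among all 5357.

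The stages ran differently in the groups, which was not tested. In the loops first called in early G1 the share with boundaries at both anchors was about level from ana/telophase on, while the domain lists grew from 5531 to 10899. In the earlier loops it was 21.2% in ana/telophase and 12.6% in late G1, and in the later loops 16.9% and 27.0%. The boundary share also went with size, from 5.64% under 100 kb to 60.0% at 400 to 490 kb among the loops first called in early G1. Within 100 to 190 kb the early-G1 shares were 14.2%, 11.9% and 14.4% in the earlier loops, those first called in early G1 and the later loops, and their intervals overlapped. The smallest domain in the lists was 160 kb, so most of the shorter loops could not match 1 domain.

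**Figure D5:**
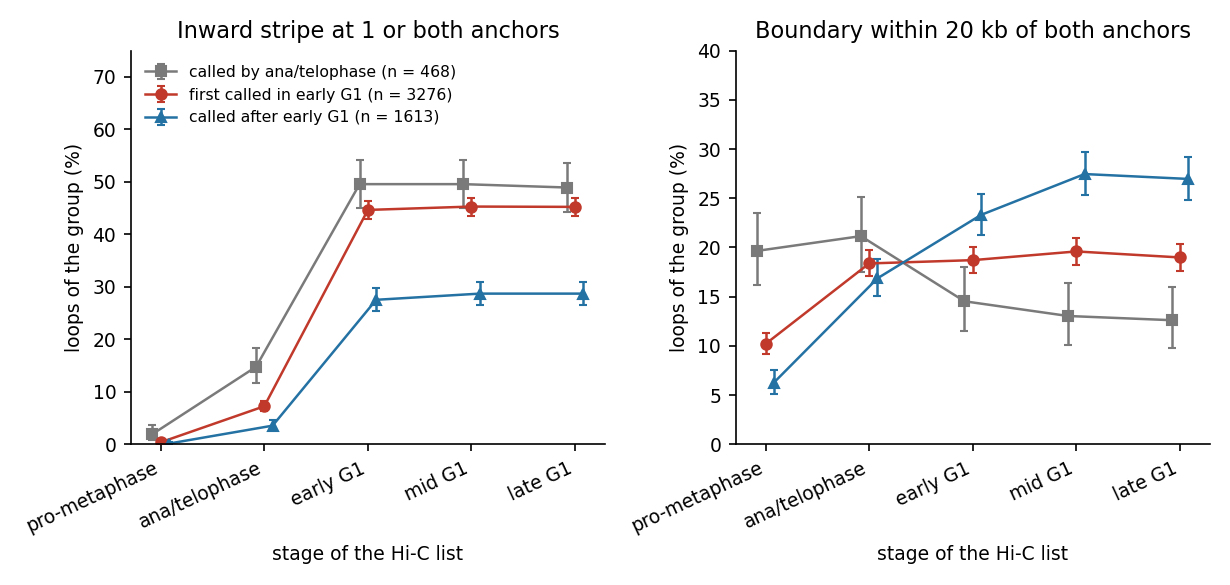
Share of loops (y axes, percent of the group) with an inward stripe at 1 or both anchors (left) or a domain boundary within 20 kb of both anchors (right), by the stage of the Hi-C list (x axis); points are shares and whiskers exact 95% intervals. In the loops first called in early G1 the stripe share is 7.23% in ana/telophase and 44.7% in early G1, while the boundary share is 18.4% and 18.7%.

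Some of the loops had neither feature. In early G1, 841 (25.7%, 24.2 to 27.2) had no inward stripe and no boundary at either anchor, against 24.9% of all 5357. Counting a boundary only where both anchors had one, 1576 (48.1%) had no inward stripe, no such boundaries and no joining domain, against 50.3%. Both an inward stripe and a joining domain were present in 301 (9.19%), against 7.58%. In 428 of the loops (13.1%, 11.9 to 14.3), 1 or both anchors overlapped an anchor of an ana/telophase loop, against 9.55% of the later loops. The rule leaves loops matched in ana/telophase out of both groups, and that list holds only 908 loops, so both shares are limited in advance.

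The loops with the highest late-G1 observed/expected show how these layers combine. The highest joined chr2:109740001-109760000 to chr2:110020001-110060000 (300 kb), with 14.0 in early, 9.81 in mid and 17.3 in late G1. CTCF was at both of its anchors from pro-metaphase on. Rad21 was at the upstream anchor alone in pro-metaphase and ana/telophase and at both from early G1. A domain joined the anchors from ana/telophase on, and an inward stripe ran from the downstream anchor from early G1.

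The next joined chrX:99410001-99440000 to chrX:99660001-99690000 (260 kb), with 11.7, 14.9 and 16.5. CTCF was at both anchors from pro-metaphase on, and Rad21 was at neither before early G1 and at both from then on. A domain joined them from ana/telophase on, before any Rad21 peak was listed there. The third, chr3:153920001-153950000 to chr3:154220001-154240000 (300 kb), had 9.66, 13.9 and 14.3. Rad21 was at both of its anchors from ana/telophase on, and it had no stripe at any stage.

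Those 3 loops were also the highest among the loops with Rad21 at both anchors and a joining domain in early G1. The fourth, chr17:66570001-66600000 to chr17:66830001-66850000 (250 kb), was 6.13 in early, 11.7 in mid and 14.2 in late G1. Rad21 was at both of its anchors from ana/telophase on. The fifth, chrX:139250001-139280000 to chrX:139480001-139500000 (230 kb), was 13.5, 19.0 and 14.1. It had Rad21 only at the downstream anchor in ana/telophase and early G1 and at both in mid G1, and its stripe ran from the upstream anchor.

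The loops with the largest and smallest ratios were compared with another pixel in early G1. The largest ratio, 2.58, belonged to chr2:28050001-28070000 and chr2:28260001-28280000 (210 kb), with 2.53 in early, 6.75 in mid and 6.55 in late G1. The pair chr16:57230001-57250000 and chr16:57590001-57610000 (350 kb) had 4.47, 13.4 and 11.4, and the pair chr3:101290001-101320000 and chr3:101600001-101630000 (320 kb) had 5.43, 11.9 and 12.9. Their early-G1 pixels lay 60, 10 and 30 kb from those of late G1, and the first of the 3 shared its early-G1 match with another loop. All 3 had Rad21 at both anchors in early G1 and a domain joining the anchors there. In the first and the third, Rad21 was at both anchors already in ana/telophase. In the second, Rad21 was at neither anchor in ana/telophase.

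The lowest ratio, 0.294, belonged to chr11:61800001-61830000 and chr11:62090001-62100000 (280 kb), with 10.4 in early, 8.41 in mid and 3.05 in late G1. The pair chr11:102090001-102120000 and chr11:102270001-102290000 (170 kb) had 6.47, 6.87 and 1.97. The pair chr7:133900001-133930000 and chr7:134240001-134260000 (350 kb) had 8.18, 7.79 and 2.54. In all 3 the early-G1 pixel lay 50 to 70 kb from that of late G1, so these values do not follow 1 contact. The first of the 3 had 2 early-G1 matches, and the first and the last shared their match with another loop. In these 3 loops Rad21 was at the downstream anchor alone in ana/telophase and early G1. The late-G1 Rad21 fold at the upstream anchor was 4.26, 4.94 and 5.02, against 26.1, 21.6 and 38.6 at the downstream anchor. An inward stripe ran from the downstream anchor in all 3 in early, mid and late G1.

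The strongest loops with no early-G1 Rad21 peak at either anchor still had one at 1 anchor in ana/telophase. The pair chr14:64480001-64520000 and chr14:64650001-64690000 (180 kb) had 5.64 in early, 10.2 in mid and 9.31 in late G1. The pair chr6:50250001-50270000 and chr6:50470001-50500000 (230 kb) had 7.31, 9.08 and 9.09, and the pair chr6:34460001-34490000 and chr6:34700001-34710000 (240 kb) had 5.26, 6.87 and 8.79. Rad21 was at both anchors of all 3 in mid G1. The late-G1 Rad21 folds at their 6 anchors were between 10.2 and 17.8. Over all 192 such loops the medians were 6.32 at the weaker and 9.71 at the stronger anchor.

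At the extremes of size, the 3 longest loops named were 490 kb. The pair chr13:80990001-81020000 and chr13:81500001-81510000 had 8.85 in early, 8.62 in mid and 11.0 in late G1. The pairs chr17:84290001-84310000 with chr17:84780001-84800000 and chr16:85810001-85830000 with chr16:86300001-86320000 had 3.54, 5.96 and 4.44, and 4.80, 4.89 and 4.28. None of the 3 had Rad21 at both anchors in early G1, and all did in mid G1. They do not stand for their size class. At 400 to 490 kb, 68.5% of 130 loops (59.7 to 76.3) had Rad21 at both anchors in early G1, against 58.6% of all 3276. The 3 shortest, of 30 kb, were chr4:125890001-125910000 with chr4:125930001-125950000, chrX:7320001-7340000 with chrX:7360001-7380000, and chr10:79330001-79360000 with chr10:79380001-79390000. Their late-G1 observed/expected values were 2.18, 2.05 and 1.95, and none had an inward stripe at any stage.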

How the data were processed

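Titles gave each sample's assay, target and stage. Per the submitters' processing notes, HiC-Pro and Bowtie2 were used for Hi-C and MACS2 2.1.0, Bowtie 0.12.7, bedtools 2.27.1 and SAMtools 1.7 for ChIP-seq, on build mm9. What called the loops, domains and stripes, and how contacts were normalized, is not given in the sources here. The deposited peak lists pool the replicates of a stage, per the peak names, and carry the authors' fold (a ratio) and −log10 of p and of q, as deposited. The deposited loop lists give an observed contact signal, an expected signal and a p-value, per the file headers; the deposited domain and stripe lists give positions in bins of 10 kb, and the stripe lists also a deposited ratio. Read depth per sample is unknown.

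Loops were matched, and peaks, boundaries and stripes assigned to anchors, with SciPy 1.17.1, pandas 2.3.3 and NumPy 2.4.6 in Python 3.11.15, and plotted with Matplotlib 3.10.9. A peak or stripe anchor counted if it shared at least 1 bp with the loop anchor. Size is measured from bin to bin of a loop's highest pixel. Where a loop had several matches, that with the highest observed/expected was used. The interval functions were tested on simulated lists, partly against bedtools 2.31.1, and passed 8 of 8 tests. No p-value was computed. Positions are 1-based in mm9. The loops, comparisons and alternatives were chosen with earlier results of these data known; alternatives added after these values were seen are named as such. Loops named by position are the 5 with the highest late-G1 observed/expected, the 3 highest and 3 lowest in the ratio of late over early G1, the 3 longest and 3 shortest, the 3 strongest with Rad21 at both anchors and a joining domain in early G1, the 3 strongest with no early-G1 Rad21 peak, those next to the size limit, and the most shared anchor; chromosome 18 was left out of the naming. Genes and sequences were not used here, since the references at hand are in build GRCm38. Capture-C, RNA polymerase II and input were not analysed here.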

Additional observations from a re-analysis of the deposited data

How the results depend on the processing

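No paired analysis was possible because replicates are pooled within every list, and for the same reason leaving out replicates was not run. Of 88 alternatives over the 9 results, 51 gave a value inside the interval of the reported one, or a number of loops within 1.5 times. For the others the cause was not tested unless stated. The 51 include alternatives that could not move. Stripes of at least 100 kb changed nothing, since the shortest was 130 kb. Ana/telophase Rad21 at equal list length was also unchanged, since 7995 is that list's own length. With matches within 10 kb, the late over early ratio was 1.04 and the mid-G1 match 94.6%. With 40 kb, Rad21 at both anchors was 56.7% in early G1 and 39.7% in ana/telophase, the ratio 0.993, on the other side of 1, and the mid-G1 match 97.0%. With anchors widened by 10 kb the ratio was 1.00 and the stripe share 42.7%. With peaks of −log10 q of at least 5, Rad21 at both anchors was 56.3% and 35.3%. With asynchronous peaks choosing the loops, CTCF in early G1 was 99.2%, Rad21 70.4% and 49.8%, the ratio 1.04, the mid-G1 match 96.6% and the stripe share 47.1%. With loops under 300 kb only, the median size was 140 kb, boundaries at both anchors 13.8% and stripes 37.8%, by construction shorter loops. With 7995 peaks per list, CTCF was 36.2% and Rad21 53.8% in early G1. The ratio was 1.05 with the nearest match and 1.17 from observed contact; in subsets chosen after the data had been seen it was 1.06 with 1 match that no other loop shared and 1.07 with the match at the same pixel. Boundaries at both anchors were 13.3% within 10 kb, 28.2% within 40 kb and 5.95% for domains in no larger domain. Stripes were 48.3% within 20 kb of an anchor and 47.0% in either direction. With anchors at most 20 kb wide, chosen after the data had been seen, 1172 loops were left, Rad21 was 55.1% and 36.1%, the ratio 1.00, the mid-G1 match 94.8%, boundaries 17.2% and stripes 39.9%.

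Under the other 7 ways of choosing the loops that were planned for all results, early-G1 Rad21 at both anchors was highest in the earlier and lowest in the later loops, as reported; with narrow anchors the earlier loops and those first called in early G1 had about the same share. Without replicates or read depth, a difference of a few percentage points between lists cannot be told apart from a difference in how many features were called.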
